A study of Mus musculus with 8 samples.

Results

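The mitochondrial genome of the mouse was represented in the count table by 37 of its 55335 gene rows, chosen as all rows whose gene symbol begins with mt-. They comprised 2 ribosomal RNA (rRNA) genes, 22 transfer RNA (tRNA) genes and 13 protein genes. Their transcripts were measured by RNA-seq in CD8+CD44+PD-1+ TILs, T cells that have infiltrated a tumor, sorted from MC38 tumors of C57BL/6 mice aged 6 to 10 weeks. MC38 is a mouse colon adenocarcinoma line, and PD-1 on CD44+ cells marks T cells that have met antigen. The 4 WT samples (S1 to S4) came from Lsd1f/f mice and the 4 KO samples (S5 to S8) from Cd4-Cre+Lsd1f/f mice, so both groups carried floxed Lsd1 alleles and only the KO mice carried the recombinase. Cd4-Cre is active from T cell development in the thymus onwards and acts in CD4+ and CD8+ lineages alike. Lsd1 (Kdm1a) encodes a histone demethylase, and the study asked how its loss in T cells changes gene expression in these TILs. A WT sample pooled cells of 2 mice and a KO sample held those of 1 mouse, each with 10000 to 20000 sorted cells. The extraction protocol gave day 18 after tumor implantation and the series design gave day 14.

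Mitochondrial DNA is a small circular genome kept in many copies per cell. It is copied into long transcripts from both strands, which are cut at the tRNAs into separate rRNAs, mRNAs and tRNAs. The 2 rRNAs form the core of the mitochondrial ribosome, and that ribosome makes the encoded proteins, all of them subunits of the oxidative phosphorylation complexes I, III, IV and V. All other subunits, and every factor that copies, transcribes, processes and translates this genome, are encoded in the nucleus. In activated T cells mitochondrial respiration is known to support memory formation and persistence.

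Total counts on genes ranged from 11657807 to 30295406 per sample, with the highest total in S8. Levels below are CPM, counts scaled to a library of 1000000 with TMM factors (trimmed mean of M values), which ranged from 0.940 to 1.05. Kdm1a was 44.5, 47.1, 42.6 and 44.8 CPM in the WT samples and 25.2, 30.5, 32.0 and 34.7 CPM in the KO samples. These levels did not overlap, and the log2 fold change was -0.55 (SE 0.14, n = 4 per group, adjusted p = 0.0163 by edgeR). The count covers the whole gene, including exons outside the floxed part. The summed level of 11 T cell markers was 4060 to 4764 CPM in WT and 3697 to 4527 CPM in KO, with 1 called higher and 0 called lower. Its members went both ways. Cd44 was 398 to 487 CPM in WT and 668 to 950 CPM in KO. Cd8b1 was 306 to 376 CPM in WT and 231 to 288 CPM in KO, and Cd247 was 117 to 132 CPM in WT and 89.6 to 112 CPM in KO. The sum of 17 macrophage and antigen-presenting cell markers was 420 to 1217 CPM in WT and 216 to 297 CPM in KO. Of the 16 tested, 11 were called lower, beside 1.99% of all genes tested. Most of the KO sum was Cd74, at 110 to 337 CPM in WT and 144 to 203 CPM in KO. Itgam also overlapped, at 4.28 to 14.6 CPM in WT and 4.59 to 14.0 CPM in KO. Lyz2 was 54.7 to 144 CPM in WT and 5.72 to 16.4 CPM in KO, and C1qb 31.3 to 114 and 2.25 to 7.21 CPM. Red blood cell markers summed to 4.95 to 13.3 CPM in WT and 0 to 0.917 CPM in KO, and 3 CD4 T cell markers to 5.57 to 9.68 CPM in WT and 16.5 to 47.0 CPM in KO. Fewer cells of a type and less RNA per cell cannot be told apart in bulk samples, and the part of these other cells in the mitochondrial levels was not tested.

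The 37 genes held 13383913 counts over the 8 samples, almost all on rRNA. The rRNA genes took 12510977 of them (93.48%), the protein genes 872464 and the tRNA genes 472. Cytoplasmic and mitochondrial rRNA was depleted before library preparation, so the rRNA counts are those left by the depletion. The share of all counts that fell on the 37 genes was 10.7%, 11.2%, 9.36% and 6.97% in the WT samples, in the order of their numbers. In the KO samples it was 10.8%, 8.77%, 12.5% and 10.7%. The group means were 9.56% ± 1.90 in WT and 10.7% ± 1.53 in KO (SD, n = 4 each). WT sample S4 was the lowest and KO sample S7 the highest, with the other samples mixed between them.

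The rRNA share was close to the total, since rRNA made up most of the counts. It was 10.1%, 10.7%, 8.66% and 6.26% in WT and 9.84%, 7.88%, 11.8% and 10.2% in KO, with means of 8.91% ± 1.96 and 9.93% ± 1.61. The protein genes together took 0.617%, 0.549%, 0.702% and 0.704% of the counts in WT, and 0.920%, 0.895%, 0.708% and 0.531% in KO. Here the samples took another order. KO samples S5, S6 and S7 lay above all WT samples, S7 only just, and KO sample S8 lay below all of them. The means were 0.643% ± 0.0746 in WT and 0.764% ± 0.181 in KO, a difference smaller than the KO spread. Without rRNA in the denominator the protein share was 0.705% ± 0.0699 in WT and 0.847% ± 0.194 in KO. The counts on all 22 tRNA genes were 73, 51, 80 and 87 in WT and 59, 15, 41 and 66 in KO. The plot of class shares shows these overlaps.

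**Figure D1:**
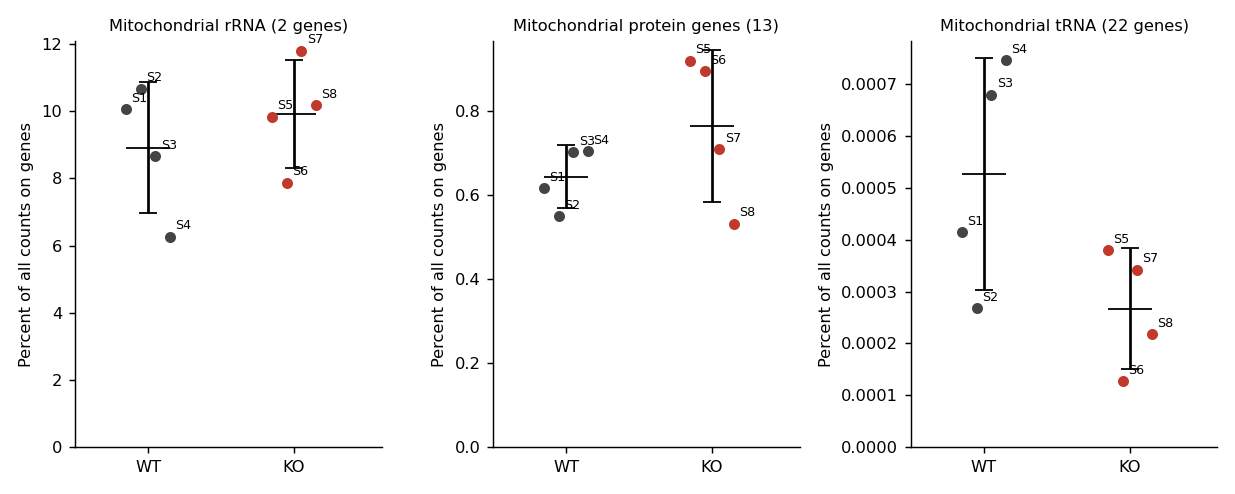
Share of all counts on genes that fell on mitochondrial rRNA, protein and tRNA genes (percent, each axis from 0), with 1 point per sample and bars for the mean ± SD of 4 samples. WT and KO overlap in all 3 classes, and KO sample S8 has the lowest protein share (0.531%) while S5 has the highest (0.920%).

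The amount of rRNA per protein-gene count differed more between samples than between groups. There were 16.3, 19.4, 12.3 and 8.89 rRNA counts per protein-gene count in WT, and 10.7, 8.80, 16.7 and 19.2 in KO. S2 and S8 had the highest values, and they also had the lowest protein shares. These samples had the highest levels of Gm26917, a nuclear noncoding RNA gene, at 137760 CPM in S2 and 143320 CPM in S8 against 66111 to 125290 CPM in the others. With the 10 nuclear genes of most counts left out of the denominator, S2 and S8 had the lowest protein shares, at 0.682% and 0.660%. Gm26917 was not left out by itself, and its part in these shares was not tested. The ratio of mt-Rnr2, the large-subunit rRNA, to mt-Rnr1, the small-subunit rRNA, ran from 2.60 in S7 to 3.97 in S3, with means of 3.39 ± 0.469 in WT and 3.24 ± 0.589 in KO.

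Levels of the mitochondrial genes differed widely from gene to gene when compared per length. As CPM per kilobase, averaged over the 8 samples, mt-Rnr2 stood at 45570 and mt-Rnr1 at 23666. Among the protein genes mt-Co1, the catalytic core of cytochrome c oxidase (complex IV), was highest at 3104 ± 591 (SD, n = 8). It was followed by mt-Nd1, a membrane subunit of complex I, at 705 ± 169, and mt-Cytb, the cytochrome b of complex III, at 633 ± 141. The complex I subunits mt-Nd5 (231 ± 32.5), mt-Nd2 (179 ± 60.1) and mt-Nd4 (145 ± 32.6) came next. mt-Nd6, the only protein gene on the minus strand, was lowest of those measured at 15.96 ± 6.18. Each gene stood above the next in this order in 8 of 8 samples, except mt-Nd5 over mt-Nd2 and mt-Nd2 over mt-Nd4, which held in 7 of 8. mt-Co1 alone made up 63.9% to 71.9% of the protein-gene counts of a sample.

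The remaining 6 protein genes were nearly or entirely without counts, and they all lay next to each other. From the tRNA gene mt-Ts1 to mt-Nd4l (chrM:6870-10173 in GRCm38, 3304 bp), 11 successive genes held 15 counts over all 8 samples. mt-Co2, a copper-binding subunit of complex IV, had 6 counts, mt-Atp6, the membrane subunit of ATP synthase (complex V), had 6, and mt-Co3, another complex IV core subunit, had 3. mt-Atp8 (complex V), mt-Nd3 and mt-Nd4l (both complex I) had 0, as did the 5 tRNA genes of the stretch. The flanking genes had 600595 counts (mt-Co1) and 24808 counts (mt-Nd4). Complex V was thus without a measured mitochondrial gene, and complex IV was represented by mt-Co1 only. A count of 0 allows at most 3 counts per sample, or 0.105 to 0.250 CPM, and this limit covers counting error only.

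Each of these protein genes except mt-Atp8 had an almost exact copy among annotated nuclear transcripts. The copies are unprocessed pseudogenes on the minus strand of nuclear chromosome 1 (chr1:24611535-24616197). Over their aligned lengths Gm28661 and mt-Co2 (681 bp), Gm10925 and mt-Atp6 (678 bp), Gm28437 and mt-Co3 (783 bp), Gm10222 and mt-Nd4l (294 bp), and Gm28439 and the start of mt-Nd4 (876 bp) had 0 differences. Gm28438 and mt-Nd3 (345 bp) had 1, at the third base counted from the start of the gene (T3C). The first 60 bases of these genes and their copies, from the GENCODE transcripts of GRCm38, show how little separates them, with differing bases in capitals.
mt-Nd3 (chrM:9459-9518, plus strand): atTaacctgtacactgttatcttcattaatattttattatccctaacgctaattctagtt
Gm28438 (chr1:24613060-24613119, minus strand): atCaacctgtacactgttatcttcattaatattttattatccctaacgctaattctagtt
mt-Co2 (chrM:7013-7072, plus strand): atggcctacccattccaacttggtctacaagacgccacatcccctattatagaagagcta
Gm28661 (chr1:24615506-24615565, minus strand): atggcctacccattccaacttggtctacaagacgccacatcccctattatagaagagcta
Gm13341 (chr2:22587903-22587962, minus strand): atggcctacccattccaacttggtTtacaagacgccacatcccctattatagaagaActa
The last of these is a second copy of mt-Co2, on nuclear chromosome 2, with 28 differences over 672 bp. The copies on chromosome 1 keep the order and spacing of the mitochondrial genes: the start of the mitochondrial gene plus the end of its copy gave 24622578 for 4 pairs and 24622577 for the other 2.

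The share of a gene that also occurs in annotated nuclear transcripts was measured with windows of 42 bases, the length of the shorter read given in the protocol. All 643 windows of mt-Co2 occurred in a nuclear transcript, as did 99.9% of those of mt-Co3, 99.5% of mt-Atp6, 98.8% of mt-Nd4l and 98.0% of mt-Nd3. In mt-Nd4 the value was 62.5%, all within bases 1 to 876 of the gene, and in mt-Co1 55.7%. It was 11% in mt-Nd5, 9.73% in mt-Nd2, 1.56% in mt-Rnr2 and 0.816% in mt-Cytb, and 0 in mt-Rnr1, mt-Nd1, mt-Nd6 and every tRNA gene. The boundary within mt-Nd4 is printed below, with the last bases shared with Gm28439 in capitals.
mt-Nd4 (bases 847 to 906, chrM:11013-11072, plus strand): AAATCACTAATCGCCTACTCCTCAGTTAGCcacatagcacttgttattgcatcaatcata
mt-Atp8 had 0 counts with 1.23% of its windows shared, and the 5 tRNA genes of the stretch had 0 counts with no window shared. They lie between mitochondrial genes that have annotated copies on chromosome 1, and the windows covered annotated transcripts only. The nuclear sequence between the annotated copies was not analysed here. How read pairs that match several places were counted is not given in the sources used here, and its part in these low counts was not tested.

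The nuclear copies did not hold the missing counts either. Over the 8 samples Gm28438 had 109 counts, Gm28437 42, Gm28661 32, Gm10925 31, Gm29216 (a copy of the end of mt-Co1) 21, Gm28439 9 and Gm10222 1. On chromosome 2 Gm13340, a copy of mt-Co1 with 37 differences, had 491 counts and Gm13341 had 128. All of these are at most 491 counts beside the 600595 of mt-Co1. When levels were set per 1000 windows that no nuclear transcript shares, the order of the protein genes changed at mt-Nd4. It moved from below mt-Nd2 to 398 ± 89.5 CPM per 1000 windows, above mt-Nd5 (266 ± 37.4) in 8 of 8 samples, with mt-Nd2 at 207 ± 69.3. mt-Co1 stood at 7201 ± 1371 on this scale, mt-Nd1 at 736 ± 177 and mt-Cytb at 662 ± 147. The scale divides all counts of a gene by its unshared windows alone. Read pairs that touch shared windows may be among those counts, and their part in the changed order was not tested.

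**Figure D2:**
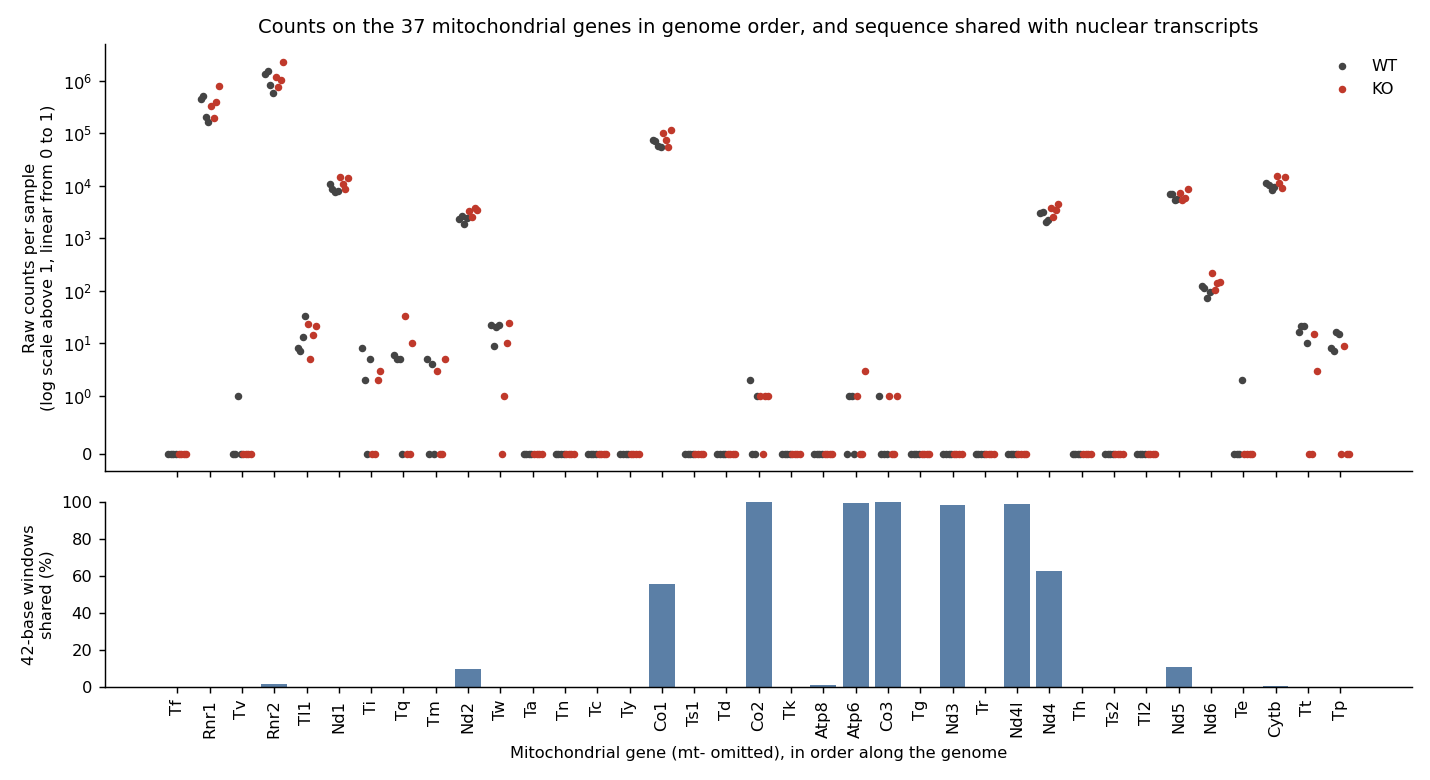
Raw counts per sample on the 37 mitochondrial genes in their order along the genome (upper axis, logarithmic above 1 and linear from 0 to 1, grey for WT and red for KO), and the percent of 42-base windows of each gene that also occur in a nuclear transcript (lower axis). The 11 genes from mt-Ts1 to mt-Nd4l hold 15 counts in all, and 5 of them share at least 98.0% of their windows.

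The tRNA genes, 59 to 75 bp long, had counts at 9 of 22. mt-Tl1 had 124 counts over the 8 samples, mt-Tw 108, mt-Tt 86, mt-Tq 59, mt-Tp 55, mt-Ti 20, mt-Tm 17, mt-Te 2 and mt-Tv 1, and the other 13 had 0. All 9 with counts were among the 17 outside the uncounted stretch. mt-Tl1 is a leucine tRNA that directly follows mt-Rnr2 on the same strand, and none of its windows occurs in a nuclear transcript. It is printed whole as the tRNA gene with the most counts.
mt-Tl1 (chrM:2676-2750, plus strand): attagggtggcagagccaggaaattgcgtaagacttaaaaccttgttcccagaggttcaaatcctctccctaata
Mature tRNAs are short and heavily modified, and standard RNA-seq libraries recover them poorly.

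The effect of LSD1 loss was tested for the 12 mitochondrial genes that passed the filter on low counts, which were both rRNA genes, 7 protein genes and 3 tRNA genes. None of the 12 was called higher or lower by edgeR or by DESeq2 with the study's thresholds, which ask for more than a 1.5-fold change together with an adjusted p under 0.01. Of all 15378 genes tested, 2.91% were called higher in KO and 1.99% lower. At an adjusted p below 0.05 with no fold threshold, 6.31% of all genes were higher and 4.98% lower, and again 0 of the 12. In 3 of the 12 (mt-Nd2, mt-Co1 and mt-Nd4) the p before adjustment was below 0.05. The share of all genes with such a p is not given here, so this count does not set the 12 apart. The KO levels lay above all WT levels in 8.99% of all genes and below all of them in 8.27%, and in 0 of the 12. Both rRNA genes and all 7 protein genes had a log2 fold change above 0, although that of mt-Nd5 fell below 0 with upper quartile scaling, with library size alone and with GC content offsets. The median log2 fold change was 0.33 over the 7 protein genes and -0.01 over all genes tested.

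**Figure D3:**
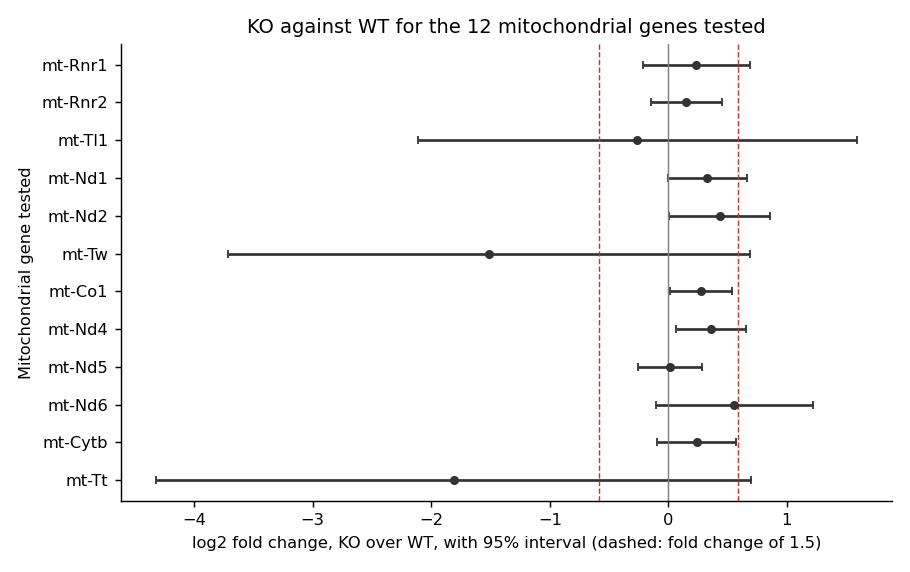
Log2 fold change (KO over WT) with its 95% interval for each of the 12 mitochondrial genes tested, from edgeR with 4 samples per group; dashed lines mark a fold change of 1.5. The rRNA and protein genes lie between 0.01 and 0.56, and the 3 tRNA genes have intervals reaching below -2.

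Complex I, which passes electrons from NADH to ubiquinone and pumps protons, had 5 of its 7 mitochondrial subunits measured. mt-Nd1 was 627, 479, 626 and 660 CPM in WT and 942, 855, 718 and 488 CPM in KO. S5, S6 and S7 were above all WT samples and S8 was near the lowest of them. The fold change was 1.26 (95% interval 0.996 to 1.58, adjusted p = 0.213 by edgeR). mt-Nd2 was 135, 146, 154 and 198 CPM in WT and 218, 204, 314 and 120 CPM in KO. Again 3 KO samples were above the WT range and S8 was below it, with a fold change of 1.35 (95% interval 1.00 to 1.82, adjusted p = 0.200 by edgeR). mt-Nd4 varied little in WT, at 177, 172, 167 and 184 CPM, and was 242, 207, 290 and 160 CPM in KO. Its fold change of 1.28 (95% interval 1.05 to 1.57) had an adjusted p of 0.113 by edgeR and an exact two-sided permutation p of 0.143 over the 70 arrangements of the samples, where the smallest possible is 0.0286.

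The other measured complex I subunits were mt-Nd5 and mt-Nd6. mt-Nd5, a proton-pumping subunit, was 404, 380, 435 and 457 CPM in WT and 485, 424, 481 and 305 CPM in KO. It had the fold change nearest to 1 among the 9 rRNA and protein genes, 1.01 (95% interval 0.839 to 1.22, adjusted p = 0.966 by edgeR). mt-Nd6 was 7.25, 5.98, 5.78 and 7.74 CPM in WT and 14.5, 8.14, 11.7 and 5.23 CPM in KO. Its fold change of 1.47 was the highest among the protein genes, with a wide interval (95% interval 0.930 to 2.33, adjusted p = 0.298 by edgeR). mt-Nd6 lies on the strand opposite to mt-Nd5 and overlaps it by 14 bp, and whether counting used strand is not given in the sources used here. As a percent of the mt-Nd5 counts, mt-Nd6 was 1.79, 1.57, 1.33 and 1.69 in WT and 2.98, 1.92, 2.43 and 1.71 in KO. The lowest KO value lay within the WT range.

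Complexes III and IV had 1 measured gene each. mt-Cytb was 647, 569, 669 and 773 CPM in WT and 988, 898, 738 and 511 CPM in KO, with a fold change of 1.18 (95% interval 0.938 to 1.48, adjusted p = 0.385 by edgeR). S5 and S6 were above the WT range, S7 within it and S8 below it. mt-Co1 was 4309, 3927, 4664 and 4478 CPM in WT and 6456, 5958, 4515 and 4062 CPM in KO. S5 and S6 were above all WT samples and the other KO samples lay among them, giving a fold change of 1.21 (95% interval 1.01 to 1.45, adjusted p = 0.185 by edgeR).

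The protein genes were largely high or low together in a given KO sample. S5 was above the WT range in 7 of the 7, S6 in 6 and S7 in 5, whereas S8 was below it in 5 and above it in 0. The same counts over all genes tested were not made. S8 was the most deeply sequenced sample. Without S8, 5 of the 12 genes had an adjusted p below 0.05 by edgeR. These were mt-Nd4 (log2 fold change 0.49, adjusted p = 0.0102), mt-Nd2 (0.63, adjusted p = 0.0128), mt-Nd1 (0.49, adjusted p = 0.0148), mt-Co1 (0.38, adjusted p = 0.0329) and mt-Cytb (0.40, adjusted p = 0.0395). The median over the 7 protein genes was then 0.49, and 0 of the 12 were called. With S8 and the filter on low counts none of the 5 passed. With S8 but no such filter, 21 mitochondrial genes were tested. Of these, mt-Nd2 (adjusted p = 0.00323), mt-Nd4 (adjusted p = 0.0227) and mt-Nd1 (adjusted p = 0.0334 by edgeR) passed. When any other single sample was left out, 0 mitochondrial genes passed. The comparison thus depended on S8 and on the filter. The shares of all genes that passed in these fits are not given here.

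**Figure D4:**
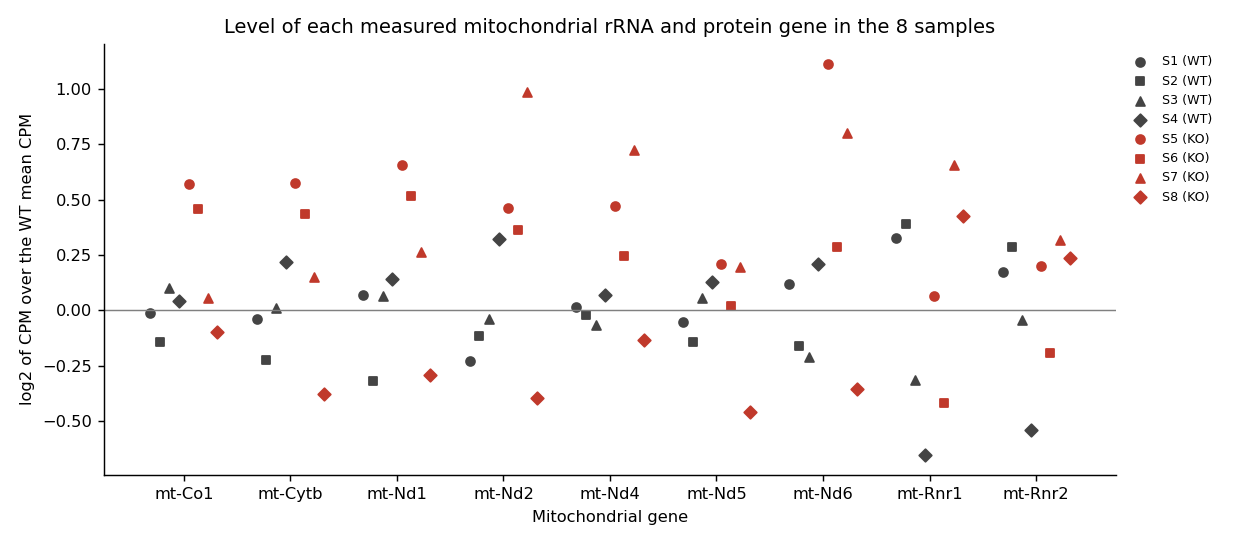
Level of each measured mitochondrial protein and rRNA gene in the 8 samples, as log2 of its CPM over the WT mean CPM of the gene (0 marks the WT mean). KO sample S8 (red diamonds) is below 0 in all 7 protein genes and above 0 in both rRNA genes, and S5 (red circles) is above 0 in all 9.

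The rRNA genes did not follow the protein genes across samples. mt-Rnr1 was 26001, 27165, 16675 and 13182 CPM in WT and 21682, 15538, 32711 and 27854 CPM in KO. Here S7 and S8 were above the WT range and S5 and S6 within it. The fold change was 1.18 (95% interval 0.860 to 1.61, adjusted p = 0.561 by edgeR). mt-Rnr2 was 76855, 83177, 66170 and 46914 CPM in WT and 78330, 59768, 85057 and 80456 CPM in KO, with a fold change of 1.11 (95% interval 0.905 to 1.37, adjusted p = 0.567 by edgeR). The WT sample S4 was the lowest for both genes.

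The 3 tRNA genes tested rested on few counts. mt-Tw, the tryptophan tRNA, had 22, 9, 20 and 22 counts in WT and 0, 1, 10 and 24 in KO (log2 fold change -1.52, SE 1.04, adjusted p = 0.413 by edgeR). mt-Tt, the threonine tRNA, had 16, 21, 21 and 10 counts in WT and 0, 0, 15 and 3 in KO (log2 fold change -1.81, SE 1.19, adjusted p = 0.385 by edgeR). Without S7 the value for mt-Tt was -4.47 (adjusted p = 0.0704 by edgeR). mt-Tl1 had 8, 7, 13 and 33 counts in WT and 23, 5, 14 and 21 in KO (log2 fold change -0.26, SE 0.88, adjusted p = 0.906 by edgeR). S5 and S6, which were high in the protein genes, had 1 count between them on mt-Tw and mt-Tt.

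Nuclear genes that serve the mitochondrial genome were examined next to its own genes. Of 19 genes of mitochondrial DNA maintenance and transcription, 0 passed at an adjusted p below 0.05, and their median log2 fold change was -0.04. At this threshold 6.31% of all genes tested were higher and 4.98% lower. The mitochondrial RNA polymerase Polrmt was 17.3, 18.9, 12.9 and 16.7 CPM in WT and 25.0, 19.6, 24.5 and 23.0 CPM in KO. Its KO samples all lay above the WT samples, but its log2 fold change of 0.48 had an adjusted p of 0.0985 by edgeR. Tfam, the factor that packages mitochondrial DNA and starts its transcription, went from 30.3 ± 2.52 to 25.2 ± 2.85 CPM (adjusted p = 0.319 by edgeR). Both were named for their role after their values were seen. In the whole list the KO levels lay above all WT levels in 1 of the 19 genes, Polrmt, and below all of them in 3. Over all genes tested, the KO levels lay above all WT levels in 8.99% and below all of them in 8.27%. The 3 included Twnk, the helicase of mitochondrial DNA (log2 fold change -0.59, adjusted p = 0.0882 by edgeR), and Ssbp1, its single-strand binding protein (-0.51, adjusted p = 0.0882 by edgeR). The other was Rnaseh1 (-0.50, adjusted p = 0.235 by edgeR). The DNA polymerase subunits Polg and Polg2, the most abundant of the list, had log2 fold changes of 0.06 and 0.12.

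Processing and translation factors gave a similar account. The shares of all genes tested that passed at an adjusted p below 0.05 were 6.31% higher and 4.98% lower. Of 40 genes of mitochondrial RNA processing, modification and turnover 0 passed (median -0.05). Among these were Trnt1, which adds the CCA end to tRNAs (log2 fold change -0.02), and Nsun2, an RNA cytosine methyltransferase (-0.42, adjusted p = 0.0811 by edgeR). Of 17 mitochondrial aminoacyl-tRNA synthetases 0 passed (median -0.12), with Tars2 at 0.28. Lars2, the leucyl-tRNA synthetase, was 867 CPM in S1 and 2037 CPM in S5 but 65.0 to 138 CPM in the other samples, and its log2 fold change of 1.08 (adjusted p = 0.514 by edgeR) turned to -1.27 without S5. Without the filter on low counts Lars2 was called higher (log2 fold change 1.07, adjusted p = 4.98e-20 by edgeR). Of 77 mitoribosomal proteins tested 0 were called and 1, Mrpl36, was lower at an adjusted p below 0.05 (20.5 ± 3.78 to 11.6 ± 2.27 CPM, adjusted p = 0.0163 by edgeR). Mrpl36 was called lower by DESeq2 (adjusted p = 0.00663) and without the filter (adjusted p = 0.00732 by edgeR). The median was -0.18, and the most abundant members, Mrps6 and Mrpl4, stood at 0.31 and -0.05.

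Among 12 tested regulators of mitochondrial gene supply, 1 was called in each direction, beside 2.91% of all genes called higher and 1.99% lower. Sirt1, a deacetylase that acts on transcription factors of mitochondrial biogenesis, rose from 55.7 ± 6.88 to 88.5 ± 9.10 CPM (log2 fold change 0.67, SE 0.12, adjusted p = 0.00163 by edgeR). Without S2 its adjusted p was 0.0103, just short of the threshold. Myc, a driver of cell growth and of ribosomal and mitochondrial gene expression, fell from 71.9 ± 11.2 to 33.2 ± 10.1 CPM (log2 fold change -1.11, SE 0.19, adjusted p = 0.00084 by edgeR).

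The nuclear subunits of the complexes that hold mitochondrial subunits had list medians below that of all genes. Median log2 fold changes were -0.14 over 36 subunits of complex I, -0.29 over 9 of complex III, -0.13 over 12 tested of complex IV and -0.17 over 16 of complex V. The 4 subunits of complex II, which has no mitochondrially encoded subunit, had a median of -0.22. None of these genes was called in either direction, although Ndufc2 was called lower without the filter on low counts (adjusted p = 0.000939 by edgeR). At an adjusted p below 0.05 the numbers lower were 1 in complex I (Ndufc2), 1 in complex III (Cyc1) and 2 in complex V, and none was higher. These are 5.19% of the 77 nuclear subunits tested, near the 4.98% of all genes that were lower at this threshold. Atp5b, the catalytic beta subunit of ATP synthase, was 351, 417, 354 and 472 CPM in WT and 302, 303, 287 and 324 CPM in KO. Its groups did not overlap (log2 fold change -0.39, SE 0.11, adjusted p = 0.0226 by edgeR). Atp5a1, the alpha subunit, was 293, 320, 311 and 349 CPM in WT and 227, 257, 242 and 249 CPM in KO (log2 fold change -0.39, SE 0.09, adjusted p = 0.0106 by edgeR). Cyc1, the cytochrome c1 of complex III, went from 50.7 ± 6.69 to 35.8 ± 5.12 CPM (adjusted p = 0.0356 by edgeR) and Ndufc2 from 28.6 ± 10.9 to 16.4 ± 3.56 CPM (adjusted p = 0.0385 by edgeR). Mrpl36, Cyc1 and Ndufc2 were named after their values were seen.

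Abundant subunits of complexes I to IV named by the same rule did not pass. The log2 fold changes were -0.14 for Ndufv1 in complex I, -0.30 for Uqcrc2 and -0.23 for Uqcrc1 in complex III, and -0.32 for Cox4i1 and -0.12 for Cox7a2l in complex IV. In complex II they were -0.46 for Sdhd and -0.20 for Sdha. The medians of the nuclear lists and of the mitochondrially encoded protein genes lie on opposite sides of the median of all genes in the plot of gene lists, and the difference between the lists was not tested.

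**Figure D5:**
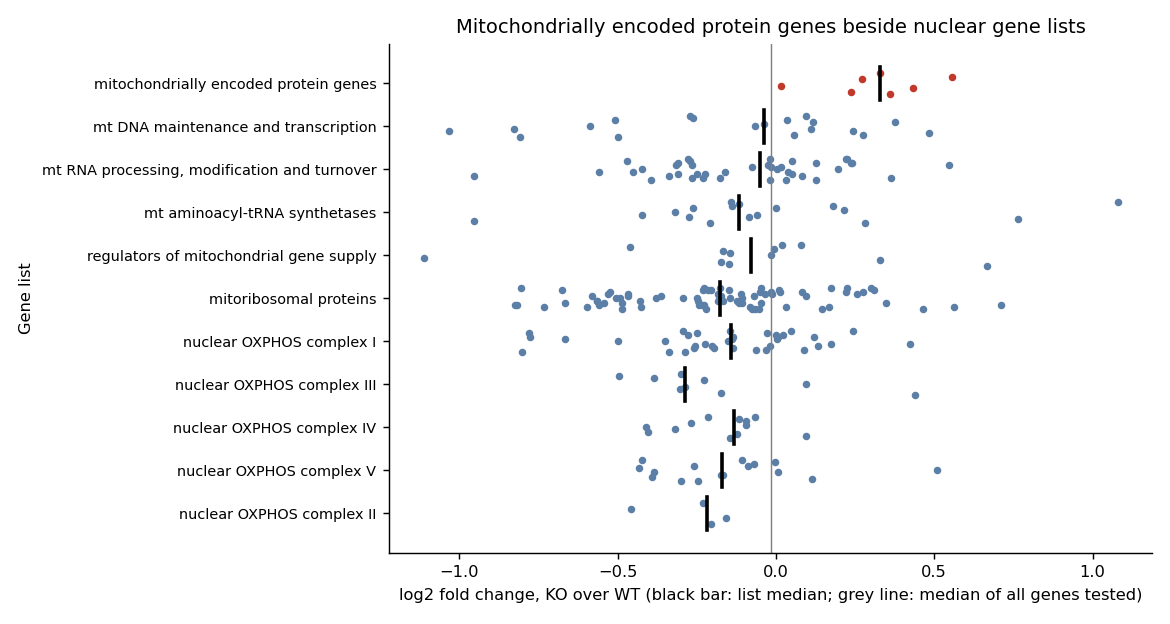
Log2 fold change (KO over WT) of each tested gene in the mitochondrially encoded protein genes (red, 7 genes) and in 10 nuclear gene lists (blue), with the list median as a black bar and the median of all 15378 genes tested (-0.01) as a grey line. The mitochondrially encoded protein genes have a median of 0.33 and the nuclear lists have medians from -0.29 to -0.04.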

How the data were processed

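RNA-seq libraries of 4 WT and 4 KO samples were depleted of ribosomal RNA. The authors aligned read pairs to GRCm38 with STAR, used featureCounts to count them over GENCODE annotation, and deposited raw counts per gene without normalization. The strand setting and the treatment of pairs matching several places are not given in the sources used here. Columns named S1 to S8 were put in WT or KO by the sample names in the study's principal component plot, and they carry no replicate number. KO replicates were separate mice and WT replicates were separate pools. Over all 12 pairs within groups, counts differed by more than sampling noise (median chi-square per gene 4.90 to 8.56, against 0.455 by noise).

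Genes were filtered with filterByExpr, scaled by TMM and tested with the quasi-likelihood test of edgeR 4.0.16 in R 4.3.3, with Benjamini-Hochberg adjustment over 15378 genes. A gene was called when it changed more than 1.5-fold with an adjusted p under 0.01. Intervals of fold changes are 95% intervals from the quasi-likelihood SE and its degrees of freedom. Levels are CPM of the counts. Single genes were also compared with exact two-sided permutation tests. DESeq2 1.42.0, other scalings and filters, GC content offsets and leaving out each sample were the alternatives. The edgeR script was tested on simulated data. Windows of 42 bases of each mitochondrial gene were looked up in all nuclear transcripts of GENCODE M21 on GRCm38, on both strands. Of 55335 gene identifiers 55154 were found in that release, and all 37 mitochondrial genes were.

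The members and gene lists were chosen with earlier results of these data known. Named were all mitochondrial genes, Kdm1a, the called members of each nuclear list and, where fewer than 2 were called, its 2 most abundant members, of which 1 is not reported here. Polrmt, Tfam, Twnk, Ssbp1, Rnaseh1, Mrpl36, Ndufc2, Cyc1 and Gm26917 were named after their values were seen. Neutrophil, B cell, NK cell, tumor epithelial and fibroblast markers were also summed, at 0.522 to 6.10 CPM in WT and 0 to 1.37 CPM in KO for neutrophils, 1.71 to 3.42 and 1.85 to 5.70 for B cells, 47.4 to 63.8 and 22.9 to 54.7 for NK cells, 13.5 to 30.0 and 21.0 to 32.5 for tumor epithelial cells, and 0.988 to 6.27 and 0.333 to 1.85 for fibroblasts. Most of the NK cell sum was Eomes, at 46.2 to 63.4 CPM in WT and 16.3 to 52.4 CPM in KO. In the same list Klrb1c was 0 to 1.32 CPM in WT and 2.14 to 5.50 CPM in KO, and Ncr1 and Klra8 were at most 1.37 CPM in any sample. Most of the tumor epithelial sum was Cdh1, at 13.4 to 31.6 CPM over all samples. Cxcr2, S100a9, Retnlg, Krt8 and Krt19 were at 0 in all samples.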

Additional observations from a re-analysis of the deposited data

Results flagged for a closer look

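In groups of 4 samples, a sample was listed when its gap to the nearest other sample took up more of the group's range than Dixon's 95% critical value. Chance does this in about 1 of 20 groups, and 3 of 50 groups examined did so. The log2 CPM of mt-Nd1 in WT sample S2 was 8.90, whereas S1, S3 and S4 ran from 9.29 to 9.37 (gap over range 0.835). The ratio of mt-Nd1 to mt-Nd2 counts was 2.29 in KO sample S7, against 4.06 to 4.32 in the other KO samples (gap over range 0.871). The ratio of mt-Nd1 to mt-Cytb counts was 0.973 in the same sample, against 0.953 to 0.955 in the others (gap over range 0.866).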

How the results depend on the processing

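No mitochondrial gene was called in either direction under any alternative. The numbers of all genes called, 447 higher and 306 lower, became 695 and 551 at an adjusted p of 0.05. DESeq2 called 618 higher and 510 lower, and without a filter on low counts edgeR called 642 and 531. Leaving out 1 sample gave 347 to 452 higher and 199 to 303 lower, with the fewest without S2. Unfiltered, 3 of the 21 mitochondrial genes tested had an adjusted p below 0.05, with the lowest for mt-Nd2 (0.00323 by edgeR). The mt-Nd5 log2 fold change turned to -0.0066 with upper quartile scaling, -0.0046 with library size alone and -0.055 with GC content offsets, and ran from -0.0544 to 0.1456 when 1 sample was left out. By leaving out 1 sample, signs also turned for mt-Tl1 (-0.57 to 0.59), Mrpl4 (-0.1671 to 0.0393), Polg (-0.0437 to 0.2204), Trnt1 (-0.1552 to 0.049) and Lars2 (-1.27 to 2.78), and the cause was not tested. That of mt-Tt ran from -4.47 to -1.39. The median over the 7 protein genes stayed between 0.20 (without S5) and 0.49 (without S8). No paired analysis was possible because the columns carry no replicate numbers. The tRNA genes held 0 to 33 counts per sample, which left wide intervals.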
